A study of Mus musculus with 4 samples.

Results

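Corticosteroid receptors and a set of genes that glucocorticoids are known to induce were followed in the CA1 field of the mouse hippocampus. The set held 10 genes, 2 receptors (Nr3c1 and Nr3c2) and 8 targets (Fkbp5, Tsc22d3, Sgk1, Cdkn1a, Mt1, Mt2, Gjb6 and Hif3a). Members were taken as every probe set that the platform annotation gives to 1 gene symbol equal to one of these names. That rule found 12 of the 12488 probe sets on the array, for 9 of the 10 genes. No probe set carried the symbol Nr3c2, so the mineralocorticoid receptor was not analysed here.

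Total RNA came from CA1 of young male C57BL/6J mice that an experimenter had handled and that had no other treatment. The series has 4 single-channel arrays, 1 for each extraction time of 1, 2, 4 or 6 hr, counted from the last shock given to a separate set of mice. Material from the shocked mice was not used here. The labels give no number of mice per array, and with 1 array an hour the hour, the animals and the hybridisation cannot be told apart. Values are intensities, linear and scaled by the authors to a common level, and 54.7, the 25th percentile of all values, was used as a floor below which values have no order.

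Corticosterone, the glucocorticoid of mice, reaches the hippocampus from the blood and binds 2 nuclear receptors that CA1 neurons share, the high-affinity mineralocorticoid receptor (Nr3c2) and the lower-affinity glucocorticoid receptor (Nr3c1). Without hormone the receptors wait in the cytoplasm on a chaperone complex, and with it they enter the nucleus and bind glucocorticoid response elements. Handling, novelty and time of day all change the hormone level in mice, and the targets followed here answer to it over minutes to hours.

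The targets did not move as a block over the hours. Of the 12 probe sets 10 were bright enough to be tested, and 5 of these 10, those of Sgk1, Tsc22d3, Mt1, Mt2 and 1 of Gjb6, read lowest on the 4 hr array, which held the minimum of 24.3% of all tested probe sets. The kinase gene Sgk1 spanned 2.44-fold, with its maximum at 6 hr. The cell-cycle inhibitor gene Cdkn1a read highest at 1 hr through both probe sets. Both metallothionein genes stayed within 1.29-fold on the deposited scaling. Log2 of the floored intensity was regressed on hour with limma. Of 10 member probe sets, 0 had a slope with a Benjamini-Hochberg adjusted p under 0.05 (0% of all 7453 tested). Over all 7453, 382 had an unadjusted p under 0.05. Ordinary least squares gave 0 and 333 by the same 2 counts, a robust prior with an intensity trend 0 and 330, and a contrast of 4 and 6 hr with 1 and 2 hr 0 and 383.

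**Figure D1:**
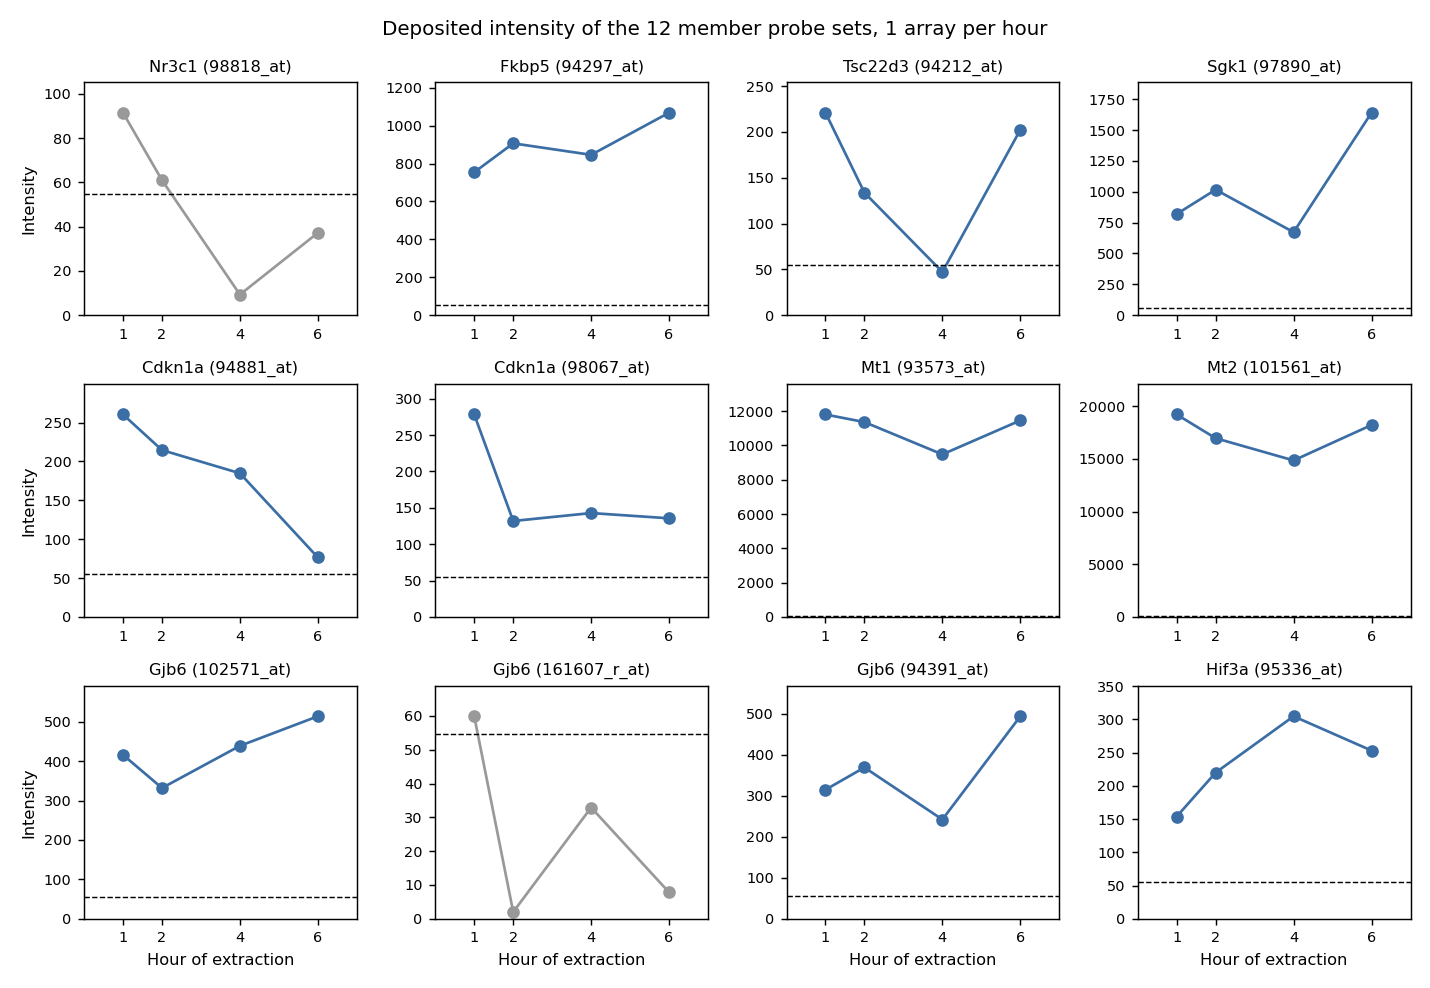
Deposited intensity (linear, y axis from 0) of each of the 12 member probe sets on the 4 arrays by hour of extraction (x axis, hr), with 1 array a point. The dashed line is the floor of 54.7; grey panels are the 2 probe sets too dim to be tested. Sgk1 reads 1641 at 6 hr and 672.5 to 1017 before it, and Cdkn1a (94881_at) reads 260.4 on the first array and 76.5 on the last.

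Nr3c1, the glucocorticoid receptor, was read by 1 dim probe set (98818_at). Its intensity was 91.5 at 1 hr and 61.0 at 2 hr, and the listed values at 4 and 6 hr, 9.3 and 37.2, were under the floor. The receptor was thus above the floor on 2 of 4 arrays, and its highest value stood at least 1.67-fold above those 2 readings. This rests on the floor: with one at the 10th percentile (19.3) the range was at least 4.74-fold, and with one at the 40th (123.6) every array was under it. The probe set did not reach the mean level required for the test and has no slope. No detection calls were used here, so these values give no statement on whether the receptor is made in CA1.

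By the likeness of log2 values centred on the 4-array mean, the genes nearest to Nr3c1 were Timm10, Sdha and H2bc1 out of 5672 genes compared. Their root mean square distances were 0.015, 0.037 and 0.040 log2 units over the 4 arrays. A total of 277 genes lay within 0.2 log2 units, and since 2 of the 4 Nr3c1 values are bounds, this nearness describes a receptor profile cut off at the floor.

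Fkbp5 encodes a co-chaperone that binds the receptor complex and lowers its affinity for hormone, and its induction by glucocorticoids closes a feedback loop. It read 754, 906, 846 and 1068 on the 1, 2, 4 and 6 hr arrays, a mean of 894 ± 132 (SD over the 4 arrays, n = 4, not replicates of a time). The 6 hr array was highest and the 1 hr array lowest, 1.42-fold apart. Between these 2 arrays the 90th percentile of the fold difference over all tested probe sets was 2.01, so the Fkbp5 difference lies within the common spread between arrays. The slope was 0.080 ± 0.064 log2 units per hr (SE; adjusted p = 1.00 in limma), and 0.040 with the 6 hr array left out.

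Tsc22d3 encodes GILZ, a leucine zipper protein that carries part of the anti-inflammatory action of glucocorticoids and is one of their most direct targets. It read 221, 134, 47.1 and 202 on the 1, 2, 4 and 6 hr arrays. Only the 4 hr value was under the floor, and the lowest of the other 3 was at least 2.44-fold above it. The highest was at least 4.04-fold above it. The range exceeded that of 82.5% of the 1864 probe sets in its level group, the dimmest of 4 equal groups by mean level. Without the 4 hr array the range was 1.65-fold, and the slope, -0.06 ± 0.19 log2 units per hr (SE; adjusted p = 1.00 in limma), turned to 0.02.

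Sgk1 encodes a serine/threonine kinase that regulates ion channels and transporters and is induced within an hour of receptor activation, in neurons and in oligodendrocytes. It read 820.1, 1017, 672.5 and 1641 on the 1, 2, 4 and 6 hr arrays. The 6 hr array stood 1.61-fold above the next, and the 1, 2 and 4 hr arrays spanned 1.51-fold. Of the 1863 probe sets in the same level group, the third, 97.2% had a smaller range. No other member lay as far out among probe sets of its own level. The slope was 0.15 ± 0.11 log2 units per hr (SE; adjusted p = 1.00 in limma), and -0.12 with the 6 hr array left out.

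The summed oligodendrocyte markers were lowest on the 6 hr array, where Sgk1 was highest. Their 7 probe sets gave 24514, 24184, 23022 and 18004 on the 1, 2, 4 and 6 hr arrays. Of the 6 tested, 4 were lowest at 6 hr, against 22.3% of all tested probe sets. The myelin gene Mbp read 5729 there and 6482 to 7638 before, while Sox10, a factor of the whole lineage, was highest at 6 hr (1057 against 846 to 1021). A second Sox10 probe set differed the other way between later and earlier hours, by -0.68 against 0.25 log2 units. Astrocyte markers summed to 51450 at 6 hr and 45422 to 49330 on the other arrays. Of 8, 3 were highest at 6 hr (23.2% of all tested), 4 at 2 hr (24.4%) and 1 (Gfap) at 1 hr (25.8%). What part these have in the Sgk1 value was not tested. In tissue RNA, fewer cells of a type and less RNA per cell cannot be told apart.

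The gene whose centred profile lay nearest to that of Sgk1 was AI506816, at a root mean square distance of 0.034 log2 units over the 4 arrays. Its own values were 609.6, 720.4, 482.5 and 1229 in the order of the hours. Gm20362 and Foxd2 followed at 0.045 and 0.058. Within 0.2 log2 units of the Sgk1 profile lay 36 of 5672 genes.

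The Sgk1 locus carries a canonical glucocorticoid response element close to a start site. The RefSeq table (GRCm38.p6) gives windows from 250 bases before to 50 after a start for 9 of the 10 members, 17 windows in all, 6 of them for Sgk1. The element searched was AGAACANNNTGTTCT, which reads the same on both strands. It occurred in 3 of 32851 windows of all genes (0.00913%), and 1 of those 3 was an Sgk1 window. There it lies at positions -189 to -175 from the start. It is shown in capitals in its surroundings on the plus strand at chr10:21993651-21993765, because Sgk1 had the largest range among members for its level.

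Sgk1: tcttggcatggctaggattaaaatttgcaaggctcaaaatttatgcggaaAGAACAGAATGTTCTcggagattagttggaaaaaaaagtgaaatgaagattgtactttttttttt

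A relaxed form, GNACANNNTGTNC, was present in 0.475% of all windows and in 2 of the 17 member windows, that same Sgk1 window and the Mt1 window. In Mt1 the match, GGACATGATGTTC, lies at positions -94 to -82 from the start. A match is a description of the letters in the window and no measure of receptor binding.

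Cdkn1a encodes p21, an inhibitor of cyclin-dependent kinases that glucocorticoids and p53 both induce. Its first probe set (94881_at) read 260.4, 215, 185 and 76.5 on the 1, 2, 4 and 6 hr arrays, each value below the one before. The 6 hr array stood 2.42-fold below the next. Its slope, -0.33 ± 0.080 log2 units per hr (SE), had the smallest adjusted p of any member (limma adjusted p = 0.884) and did not pass. It was the single member probe set with an unadjusted p under 0.05 in limma (1 of 10, against 5.13% of all tested). That p was 0.0085, and 0.033 in limma with a robust prior and an intensity trend. By ordinary least squares it was 0.061, and for the limma contrast of 4 and 6 hr with 1 and 2 hr 0.089. Without the 6 hr array the range was 1.41-fold in place of 3.40-fold and the slope -0.16.

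The second Cdkn1a probe set (98067_at) read 278, 132, 143 and 136 in the order of the hours. Here the 1 hr array stood 1.95-fold above the next and the others lay within 1.08-fold. The 2 probe sets thus share their highest array, 1 hr, and differ in where the remaining values lie. The slope of the second was -0.15 ± 0.098 log2 units per hr (SE; adjusted p = 1.00 in limma).

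Mt1 and Mt2 encode metallothioneins, small cysteine-rich proteins that bind zinc and copper, are abundant in astrocytes, and are induced by both metals and glucocorticoids. Mt1 read 11801, 11358, 9476 and 11453 on the 1, 2, 4 and 6 hr arrays. Mt2 read 19210.4, 16957, 14850.4 and 18211 on the same arrays. Both had the same order of arrays, with the 4 hr array lowest, and spanned 1.25-fold and 1.29-fold, against a median of 1.33-fold in the brightest level group on the same, deposited, scaling.

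On a common-median scaling, which raised the 2 hr array by 0.17 log2 units, the 2 hr array became the highest for both genes, the 4 hr array stayed lowest, and the ranges were 1.41-fold and 1.35-fold. Without the 4 hr array the ranges of Mt1 and Mt2 were 1.04-fold and 1.13-fold. Their slopes were -0.019 ± 0.066 and -0.018 ± 0.067 log2 units per hr (SE; adjusted p = 1.00 in limma for each). The 2 genes lie next to each other on chromosome 8, with 0 annotated genes between them, and the coding sequences are closely related, so probe sets of one may also read the other.

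Because the pair moved alike, the 250 bases before each RefSeq start are shown, with cores of the metal response element in capitals (TGCACNC or TGCGCNC on either strand). The windows are on the plus strand of GRCm38.p6, Mt2 at chr8:94172368-94172617 and Mt1 at chr8:94178839-94179088.

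Mt2: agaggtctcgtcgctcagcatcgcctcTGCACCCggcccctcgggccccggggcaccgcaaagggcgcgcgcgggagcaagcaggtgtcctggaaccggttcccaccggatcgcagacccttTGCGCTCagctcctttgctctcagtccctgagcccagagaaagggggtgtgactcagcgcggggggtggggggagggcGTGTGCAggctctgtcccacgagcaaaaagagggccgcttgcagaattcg

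Mt1: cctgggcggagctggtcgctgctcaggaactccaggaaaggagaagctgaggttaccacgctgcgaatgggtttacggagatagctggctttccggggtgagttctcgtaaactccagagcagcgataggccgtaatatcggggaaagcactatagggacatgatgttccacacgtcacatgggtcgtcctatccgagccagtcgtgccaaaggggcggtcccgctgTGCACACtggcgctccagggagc

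With the 50 bases after the start included, the Mt2 window held 4 such cores and the Mt1 window 3. At least 3 were present in 1.97% of all windows, and at least 1 in 25.7%.

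Gjb6 encodes connexin 30, a gap junction protein of astrocytes, and was read by 3 probe sets. The first (102571_at) read 416, 332, 439 and 514 on the 1, 2, 4 and 6 hr arrays. Another (94391_at) read 315, 369, 242 and 494 in that order of hours. These 2 shared the 6 hr array as the highest and differed in the lowest, at 2 hr and at 4 hr. The third (161607_r_at) read 59.9 at 1 hr and was under the floor on the other 3 arrays, and it was too dim to be tested. The first spanned 1.55-fold and the second 2.04-fold, with slopes of 0.088 ± 0.069 and 0.082 ± 0.098 log2 units per hr (SE; adjusted p = 1.00 in limma for each). The astrocyte markers, whose sum but not most of whose members was highest at 6 hr, are given beside Sgk1, and their part in the Gjb6 values was not tested.

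Hif3a encodes a hypoxia-inducible factor subunit that can restrain other subunits of the family and that glucocorticoids induce. It read 154, 220.0, 305 and 253 on the 1, 2, 4 and 6 hr arrays. The 4 hr array was highest, opposite to the 5 probe sets that had their minimum there, and the range was 1.98-fold. In its level group 38.7% of the probe sets had a smaller range. The slope was 0.14 ± 0.081 log2 units per hr (SE; adjusted p = 1.00 in limma). Leaving out the 1 hr array gave a slope of 0.051 and a range of 1.39-fold, and leaving out the 6 hr array a slope of 0.32.

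Over the members together, 5 of 10 tested probe sets had a slope above 0, against 50.9% of all tested. Their median slope was 0.031 log2 units per hr, against 0.0015 over all 7453. A range of at least 2-fold was found in 5 of 10 (Tsc22d3, Sgk1, both Cdkn1a and 1 Gjb6), against 25.3% of all, and the median range was 2.01-fold against 1.56-fold. Dim probe sets range more: the median was 2.28-fold in the dimmest level group, which held 4 of the 10, and 1.33-fold in the brightest. With the 6 hr array left out, 2 of 10 had a range of at least 2-fold, against 1393 of all 7453. With the 4 hr array left out, 3 did, against 1363. With all 4 arrays the count over all 7453 was 1883. At least 2-fold below every other array stood 2 of 10, Tsc22d3 at 4 hr and Cdkn1a (94881_at) at 6 hr, against 6.37% of all. At least 2-fold above every other stood 0 of 10, against 1.36%.

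**Figure D2:**
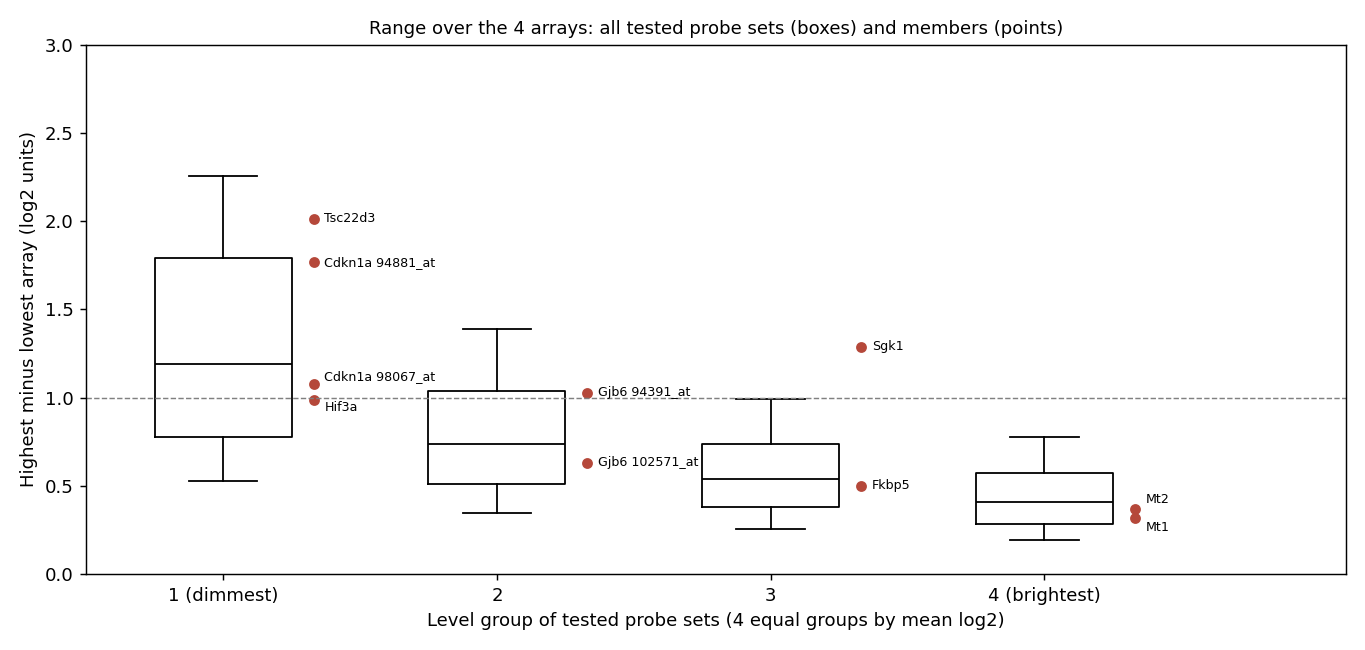
Highest minus lowest array (log2 units) for all 7453 tested probe sets, in 4 equal groups by mean log2 level, and for the 10 tested member probe sets (points). Boxes give the quartiles and the median, whiskers the 10th and 90th percentiles, and the dashed line a 2-fold range. Sgk1, at 1.29, is the only member above the 90th percentile of its level group, 0.99.

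The highest reading fell on the 1 hr array for 5 of 10 member probe sets (25.8% of all tested) and on the 6 hr array for 4 of 10 (23.2%). The 1 hr group was Tsc22d3, Mt1, Mt2 and both Cdkn1a (4 genes), and the 6 hr group Fkbp5, Sgk1 and both tested Gjb6 (3 genes). On the common-median scaling Mt1 and Mt2 were highest at 2 hr. The order of the 4 arrays was the same under the deposited, common-median and quantile scalings for 7 of the 10 probe sets with no more than 1 value under the floor; the exceptions were Mt1, Mt2 and Cdkn1a (98067_at).

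A rule chosen after the values were seen asked for 2 and 6 hr both above 1 and 4 hr. Counts under this rule are therefore descriptions and cannot show an excess. Fkbp5, Sgk1 and Gjb6 (94391_at), 3 of 10 member probe sets, met it, against 14.9% of all tested. Of 34 other glucocorticoid responsive genes 8 met it: Per1, Cebpb, Nfkbia, Ddit4, Rhob, Rasd1, Tsc22d1 and Bcl2l1. Rhob, a small GTPase, had the widest swing, at 6119 and 5635 at 1 and 4 hr and 11154 and 11828 at 2 and 6 hr. Per1, a clock gene with a glucocorticoid response element, read 360.1 and 277 at 1 and 4 hr and 506 and 498 at 2 and 6 hr. On the common-median scaling the counts were 3 of 10, 14 of 34 and 24.5% of all, and on the quantile scaling 3 of 10, 8 of 34 and 16.5%.

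The wider pathway was covered by 5 lists with 104 genes, of which 81 had a probe set and 63 were tested. Of these 63, 0 had an adjusted p under 0.05 in limma. An unadjusted p under 0.05 in limma came for 3 (Stip1, Abcb1a and Irs2), against 5.13% of all tested probe sets. A slope above 0 was found in 37, against 50.9% of all tested. Among other glucocorticoid responsive genes, 21 of the 34 tested sloped above 0 (median 0.028 log2 units per hr). Gadd45g, a stress sensor, read 347, 226, 418 and 439 at 1, 2, 4 and 6 hr. Klf4, a zinc finger factor, read 98.7, 104, 188 and 116, and a second probe set of it was under the floor on every array. Pdk4, which blocks entry of pyruvate into the citric acid cycle, read 244.5, 256, 149.6 and 221.5, and Timp3, a metalloproteinase inhibitor, 985, 778, 663 and 649. Irs2, an insulin receptor substrate, read 487, 549.6, 620.2 and 908.

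Receptor chaperones and co-chaperones hold the receptor in its hormone-binding form. They had 6 of 13 slopes above 0 (median -0.044), against 50.9% of all tested probe sets. Stip1, which hands the receptor from Hsp70 to Hsp90, had the largest negative difference and read 293, 140.0, 143 and 57.4. St13, a co-chaperone of Hsp70, read 343, 329, 221 and 288, and a second, dim probe set of it differed the other way between later and earlier hours. Stub1, a ubiquitin ligase of chaperone clients, read 1901, 1662, 1989 and 2094, and Ppp5c, a phosphatase in the receptor complex, 314, 146, 263 and 243.

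Genes of ligand supply had 3 of 5 slopes above 0, against 50.9% of all tested probe sets. Hsd11b1, which regenerates active corticosterone inside cells, read 1077, 722, 963 and 870.0 at 1, 2, 4 and 6 hr, and H6pd, which supplies its cofactor, 1621, 1453, 1640.2 and 1706. Abcb1a, the pump that exports steroids at the blood-brain barrier, read 188, 183, 89.9 and 74.5, with 4 and 6 hr below 1 and 2 hr by 1.18 on the log2 scale and no slope past the test (limma adjusted p = 0.884). Cldn5, a tight-junction marker of the endothelium that makes Abcb1a, read 621, 638.5, 394 and 318 on the same arrays. Lowest at 6 hr were 5 of the 8 tested endothelial and mural markers, against 22.3% of all tested probe sets. Others were not: Kdr, a receptor of endothelial growth factor, read 122.5, 135.5, 115 and 267. The 10 markers on the array summed to 2303, 2438, 2436 and 1900.3. Their part in the Abcb1a values was not tested. The pituitary and adrenal genes Pomc and Mc2r read 75.1 to 215 and 116 to 253.5.

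Coactivators and corepressors, which the bound receptor recruits to chromatin, had 6 of 11 slopes above 0 (median 0.014), against 50.9% of all tested. Ncoa3 read 149, 130.5, 280.5 and 187, Med1, a Mediator subunit, 629, 589, 654 and 715, Pias1, a SUMO ligase, 549.7, 367, 276.5 and 355, and Dap3 454, 750.0, 472 and 379. Of 5 other steroid receptor genes on the array only Esrra, an orphan receptor of energy metabolism, reached the level for a test, at 791, 457, 709.5 and 773. A second Esrra probe set differed the other way between later and earlier hours, by -0.15 against 0.30 log2 units.

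**Figure D3:**
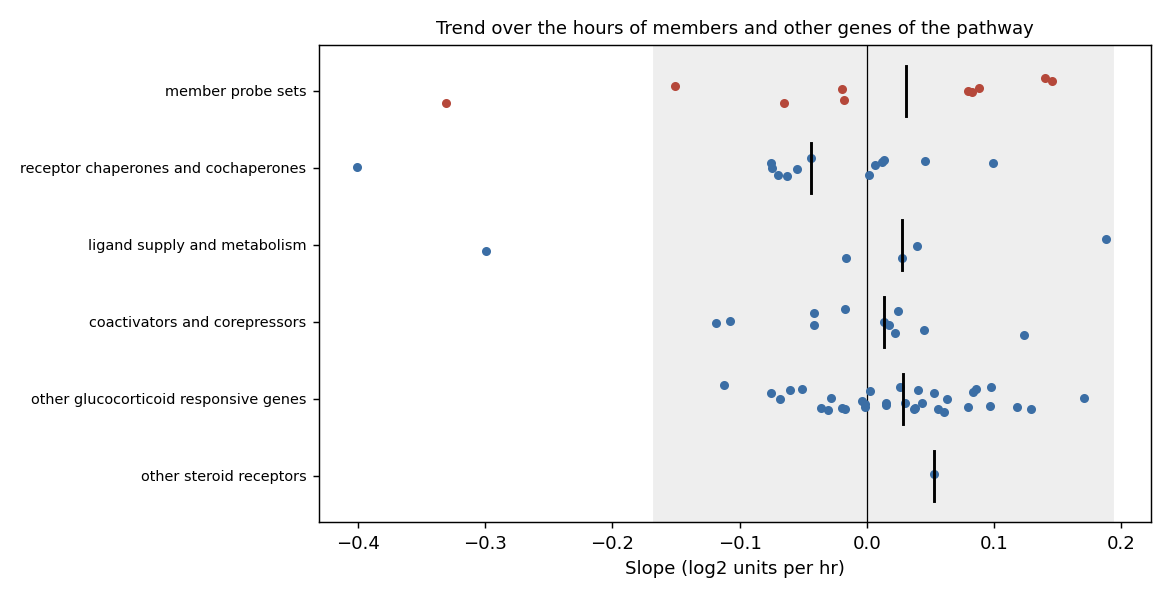
Slope over the hours (log2 units per hr, x axis) of the 10 tested member probe sets (red) and of the tested genes of 5 pathway lists (blue), 1 point each; black bars are medians. The grey band holds the central 5th to 95th percentile of all tested probe sets, -0.17 to 0.19. Cdkn1a (94881_at), Stip1 and Abcb1a lie left of it, at -0.33, -0.40 and -0.30.

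The arrays themselves were compared once. Median intensity was 173 at 2 hr and 198 to 204 on the others, and 28.3% of values were under the floor at 2 hr against 23.4% to 24.8%. The 3' to 5' ratio of the Gapdh control was highest at 2 hr, 7.56 against 4.84 to 6.25, while that of Actb was 3.20 there and 2.99 to 3.44 on the others. All 5 CA1 pyramidal markers on the array were tested, and read 426.5 or more on every array. Of the 4 CA3 pyramidal markers on the array 3 were tested, and these read 557.5 or more on every array. The marker levels therefore do not tell the 2 fields apart. The 4 hr array, where 5 member probe sets were lowest, had a high reading of Ttr, the transthyretin gene of the choroid plexus, at 3217 against 140.3 to 196 elsewhere. With it, the 4 choroid plexus and ependymal markers summed to 4153.5 at 4 hr and 935 to 1210.5 on the others. The other 3 (Kl, Folr1 and Foxj1) summed to 937 at 4 hr, inside their range of 795 to 1014 on the other arrays. What part of the low member readings at 4 hr goes with this was not tested.

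**Figure D4:**
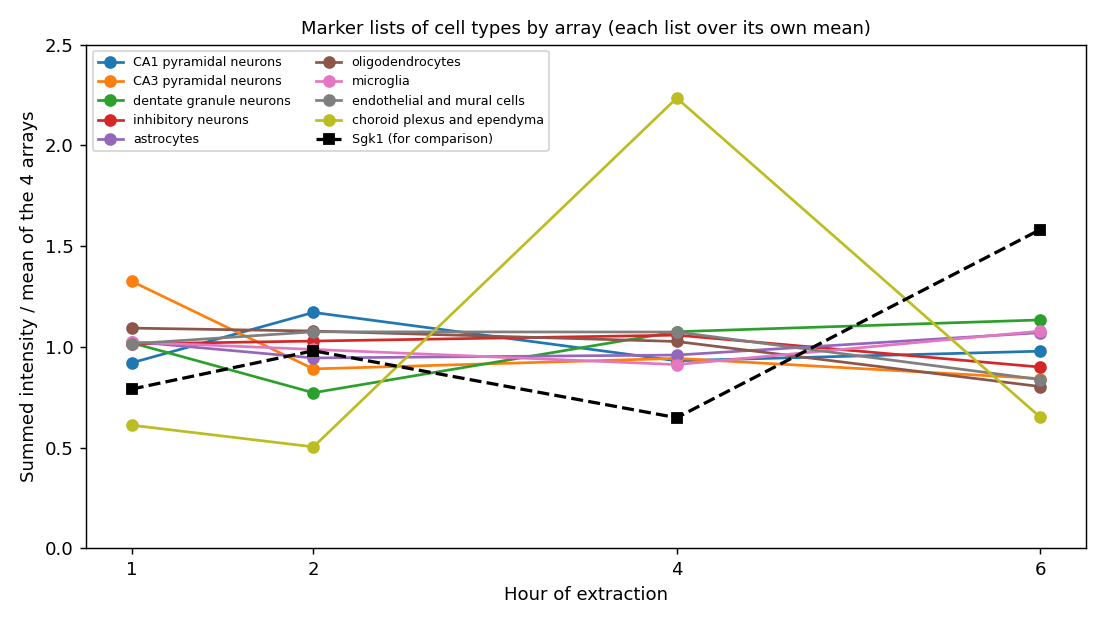
Summed intensity of the marker genes of 9 cell types on each array, over the mean of the 4 arrays (y axis from 0), by hour of extraction; lists with at least 4 genes on the array are drawn, and the dashed line is Sgk1. The choroid plexus and ependymal sum peaks at 4 hr, at 4153.5, through Ttr alone (937 without it). The oligodendrocyte sum is lowest at 6 hr, at 18004, with 4 of 6 tested markers lowest there (22.3% of all tested probe sets).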

How the data were processed

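Deposited intensity values, 1 per probe set and array, were used as the authors gave them. The software and summarisation behind them are not given in the sources used here. Their mean after trimming 2% at each end was 500.3 on every array, so a common scaling had been applied. Of 12488 probe sets, 10855 had 1 gene symbol, 396 several and 1237 none in the platform annotation. All 12 member probe sets matched RefSeq (GRCm38.p6) by Entrez identifier and symbol.

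The 66 control probe sets were left out. Values under 54.7 were set to that floor, log2 was taken, and the 7453 probe sets with a mean above the 40th percentile were tested. A line over hours was fitted to each with limma 3.58.1 in R 4.3.3, leaving 2 residual degrees of freedom; two-sided p-values were adjusted with Benjamini-Hochberg at 0.05 over all 7453. Alternatives covered scaling, floor, filter, time scale, variance model and leaving out each array. The procedure was tested on simulated data. No label ties an array to its own animals. The p-values therefore reflect scatter about fitted lines alone, possibly technical, and the number of arrays limits the precision. In limma each variance is drawn partly from all tested probe sets, with 3.16 prior degrees of freedom beside the 2 residual ones. Folds are on the floored scale and are bounds where a value is under the floor.

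Members and lists were chosen with earlier results of these data known. The text names all members, up to 4 genes of each pathway list (ranked by later minus earlier hours, 2 from either end) and the 3 genes of most similar profile for Nr3c1 and Sgk1 (Nr3c2 had none). Irs2, Hsd11b1, the 8 genes listed under the rule on 2 and 6 hr, and single marker genes (Mbp, Sox10, Gfap, Cldn5, Kdr, Ttr, Kl, Folr1 and Foxj1) were named after their values were seen.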

Additional observations from a re-analysis of the deposited data

Results flagged for a closer look

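Over the 4 arrays, 49 probe sets of members and of genes named with their values were searched for 1 array far from the rest (its gap to the nearest, over the range on the log2 scale, past Dixon's critical value), which chance gives in about 1 of 20 groups of like values. A further 2, Nr3c1 and Gjb6 (161607_r_at), were left out because values tied at the floor set the ratio. Cdkn1a (98067_at) stood out by its 1 hr array, at 278, with a ratio of 0.894. Ttr stood out by its 4 hr array, at 3217, with a ratio of 0.893. Neither hour has a second array. The 2 flagged of 49 are no more than about 1 of 20, the rate that chance gives. Ttr was also named after its values were seen, so its flag adds no support.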

How the results depend on the processing

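The trend over hours called 0 probe sets under each of the 14 alternatives (scaling, floor, filter, time scale, variance model, each array left out), and the adjusted p of members was at least 0.596. Of the slopes of member probe sets under alternatives, 129 kept their sign and 7 turned. Those that turned did so when an array was left out, where slopes ran from -0.668 to 0.149 for Tsc22d3 (0.0245 without 4 hr), -0.124 to 0.192 for Sgk1, -0.152 to 0.123 for Gjb6 (94391_at), -0.267 to 0.00998 for Cdkn1a (98067_at), -0.109 to 0.00301 for Mt1 and -0.12 to 0.0257 for Mt2. With the same sign throughout they ran from 0.0403 to 0.097 for Fkbp5, -0.372 to -0.157 for Cdkn1a (94881_at), 0.0509 to 0.158 for Gjb6 (102571_at) and 0.0507 to 0.315 for Hif3a. The value on the far side of 0 came without 6 hr for Sgk1 and Gjb6 and without 1 hr for the others. The cause was not tested. Member probe sets with a range of at least 2-fold numbered 5, between 2 and 5 with an array left out, and 2 with a filter at the 60th percentile, which tests 6 member probe sets. Over all probe sets the count was 1883 of 7453 tested, 3614 of 12422 with no filter and 543 of 4969 with the filter at the 60th percentile. With an array left out it was 1298 to 1393 of 7453. The 2 member probe sets apart on 1 array became 0 with a floor at the 40th percentile and 0 with the filter at the 60th. With an array left out they numbered 1 to 3. Over all 7453 tested, 101 stood at least 2-fold above every other array and 475 below. These counts were 140 and 133 with that floor, and 12 and 71 of 4969 with that filter. With an array left out they were 202 to 249 and 489 to 591. No paired analysis was possible because each hour has 1 array and there is 1 group.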
